A study of Ovis aries with 26 samples.

Results

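The nuclear genes of respiratory complex I were followed through the development of the fetal and newborn sheep pancreas, in wild-type (WT) and *CFTR*-/- (CF) animals. The genes were all those of the feature table whose name starts with NDUF, 45 of 24478 genes, and their transcripts were counted in single cells. Complex I (NADH:ubiquinone oxidoreductase) takes electrons from NADH into the respiratory chain of the inner mitochondrial membrane. Its peripheral arm holds an N module, where NADH is oxidised, and a Q module, where ubiquinone is reduced, and its membrane arm, with a proximal and a distal part, pumps protons. A core of the membrane arm is encoded by the mitochondrial genome, and all the other subunits by nuclear genes, together with assembly factors that build the complex without staying in it. In the pancreas, ATP made by respiration couples glucose to insulin release in endocrine cells, and it pays for enzyme synthesis in acinar cells and for the ion transport of duct cells, where the chloride channel CFTR works. By role, 10 of the 45 genes belonged to the N module, 6 to the Q module, 9 to the proximal membrane arm, 11 to the distal membrane arm and 7 were assembly factors (*NDUFAF1* to *NDUFAF7*). The remaining pair carries the family name only. *NDUFA4* encodes a protein that is now placed in complex IV (cytochrome c oxidase), and *NDUFA4L2* is its paralogue, known as a gene induced by low oxygen. One further subunit, the acyl carrier protein *NDUFAB1*, is listed under a locus number in these files, lay outside the naming rule and was read separately.

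Pancreas was collected at 80 and 120 days of gestation and at term, and 26 libraries of the 10x Genomics Chromium 3′ assay were made from 23 animals. At 80 days the WT group held 4 naturally bred male fetuses, of which replicates 2 and 4 were heterozygous (HZ) carriers of a disrupted *CFTR* allele and were used as WT, against 3 cloned male CF fetuses. By the study the disrupted allele of the HZ fetuses is in another exon than the exon 2 allele of the CF animals. At 120 days 3 WT fetuses, replicate 2 of them female, stood beside 4 cloned male CF fetuses (replicates 1 to 4) and 2 naturally bred female CF twins (replicates 5 and 6). At term 4 WT lambs, replicate 3 of them female, stood beside 3 CF lambs, of which replicates 1 and 2 were naturally bred females and replicate 3 a cloned male. By the study the WT lambs at term were delivered by natural birth, and the time they then lived was noted. Gestational age and birth thus cannot be told apart between 120 days and term. All cloned CF animals came from 1 male fibroblast line edited in *CFTR* exon 2, so they are copies of 1 genome, and cloning and genotype cannot be told apart at 80 days or in the male CF group at 120 days, where 2 of the 3 WT fetuses were male as well. In the WT group at 80 days replicates 2 to 4 were triplets, and at 120 days WT replicates 1 and 2 share an animal number, as the triplets do. So do CF replicates 2 and 3 at 80 days and male CF replicates 2 and 3 at 120 days. The tests treat all these animals as independent. CF 120-day replicate 1, CF term replicate 1 and CF term replicate 3 were each sequenced as 2 libraries, which were summed. The targeted gene did not check the labels, since *CFTR* transcripts are counted at the 3′ end: in duct cells *CFTR* stood at 87.5 to 387 counts per 1000000 (CPM) in the WT animals and at 148 to 812 CPM in the CF animals.

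The libraries held 7841217 to 171256169 unique molecular identifiers (UMIs), each of which tags 1 captured transcript, and 943 to 9543 barcodes that passed the cell filter, with a median of 3425 to 24633 UMIs per kept barcode. No pair of libraries shared more than 0.458% of the barcodes of the smaller one. In all, 79510 barcodes were kept and 72494 of them were assigned by marker genes to 10 lineages. Every marker was highest in its own lineage except for *CTRL* in acinar and *TSPAN8* in duct cells, which a gate on these same markers largely fixes. UMIs were summed per animal and lineage where at least 20 cells were present, which gave 193 sums, and CPM below means UMIs of a gene per 1000000 UMIs of such a sum. The male CF library at 120 days, replicate 3, stood apart: it had the lowest median of 3425 UMIs per barcode, 22 acinar cells, 87 duct cells and no endocrine sum, and mitochondrial transcripts made up 16.0% of its duct UMIs. Counts of members in the comparisons between lineages and in the male CF group are given with and without it. Every value is a share of the RNA counted in the cells of a lineage, so less RNA per cell and fewer cells in a particular state cannot be told apart.

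The summed level of the NDUF genes differed more than 2-fold between lineages, and within the epithelium the order depended on what the sum was divided by. Acinar cells, the enzyme-secreting cells, held 2757 ± 618 CPM (SD, n = 23 animals), with a lowest value of 1854, a median of 2694 and a highest of 3821. Duct cells held 6381 ± 1479 CPM (SD, n = 23), from 2100 through a median of 6419 to 8940, and the lowest value belonged to male CF replicate 3. Endocrine cells held 6112 ± 811 CPM (SD, n = 21), from 4871 through 6017 to 8258. Acinar cells were thus the lowest of the 3 epithelial lineages, above duct cells in only 1 of 23 animals, which was male CF replicate 3, and above endocrine cells in 0 of 21. Mural cells were gated on markers of contractile and vessel wall cells, among them *ACTA2*, *TAGLN* and *TPM2*. The study lists these genes for its stellate cells or myofibroblasts, so the lineage may hold such cells as well. Mural cells held 6230 ± 996 CPM (SD, n = 21), from 3838 through 6371 to 8612. Duct cells were above mural cells in 8 of 21 animals and mural above endocrine cells in 11 of 20, so the order of these 3 lineages was not the same from animal to animal. Mural cells were above stromal and above endothelial cells in 21 of 21 animals. The other lineages had means of 4983 ± 1018 CPM in stromal (SD, n = 22), 5193 ± 1181 in Schwann (n = 19), 4960 ± 965 in endothelial (n = 23), 4346 ± 957 in myeloid (n = 16), 4306 ± 829 in lymphoid (n = 15) and 1662 ± 865 in erythroid cells (n = 10).

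**Figure D1:**
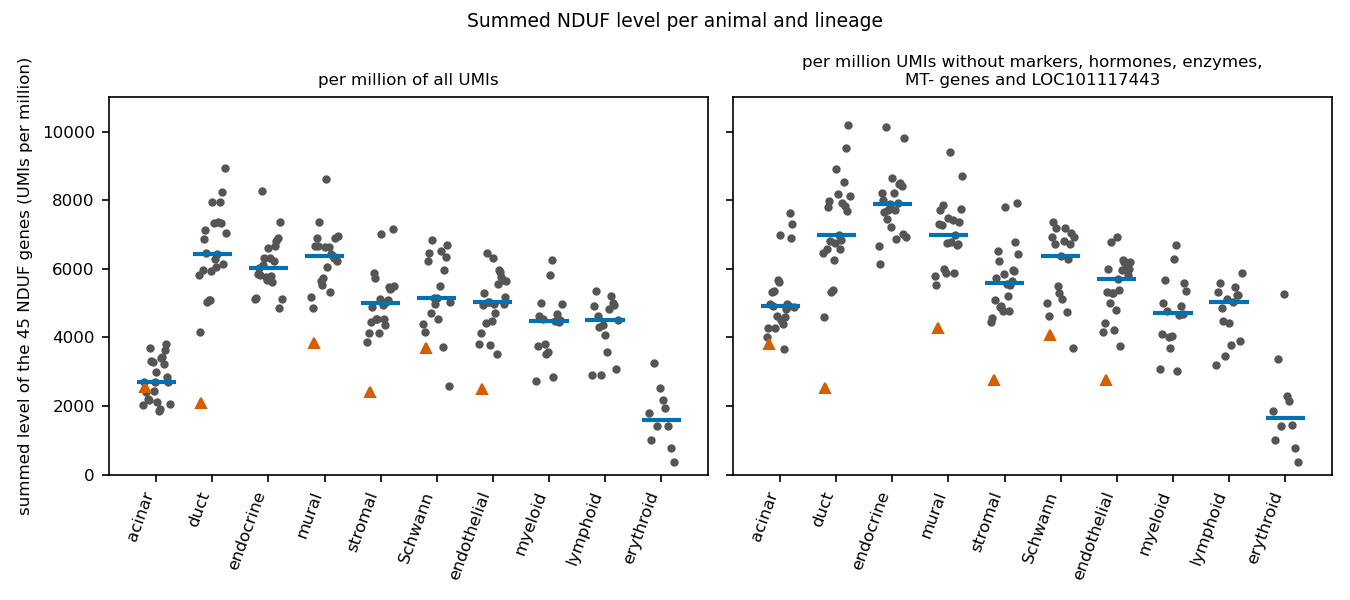
Summed NDUF level per animal in 10 lineages, as UMIs of NDUF genes per 1000000 UMIs (CPM), where each point is an animal, bars are medians and triangles mark male CF replicate 3 at 120 days. The left panel divides by all UMIs and puts the acinar median at 2694, and the right panel leaves out marker, hormone, digestive enzyme and mitochondrial genes together with *LOC101117443* and puts the acinar median at 4923.

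The acinar value moved with the denominator. A single feature, *LOC101117443*, took 29.9 ± 9.90% of the acinar UMIs (SD, n = 23; 10.9% to 43.2%), and 1.62% to 4.28% on average in the other lineages. With gate markers, hormone and digestive enzyme genes and mitochondrial transcripts left out of the denominator, the acinar level was 3256 CPM and the endocrine level 7728 CPM. With *LOC101117443* left out as well, acinar cells held 5148 CPM (3663 to 7636), duct cells 7123, endocrine cells 7885 and mural cells 6932. The acinar level was below the mean of the other 3 on all 3 denominators, while endocrine cells were below duct cells on the first and above them on the other two.

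By role, the *NDUFA4* pair set endocrine cells apart in the make-up of the sum, and their N module share had the highest mean. The N module made up 26.1 ± 0.913% of the NDUF UMIs in endocrine cells (SD, n = 21), 23.2 ± 0.637% in acinar (n = 23), 21.9 ± 0.857% in duct (n = 23), 19.3 ± 0.942% in mural (n = 21) and 19.1 ± 1.41% in stromal cells (n = 22). The lowest endocrine share, 24.4%, lay above the highest duct share, 23.8%, and the highest mural share, 21.0%, but below the highest acinar share, 24.7%, and the ranges of Schwann and myeloid cells overlapped it as well. The distal membrane arm took 32.1% of the sum in endocrine, 30.4% in acinar and 28.7% in duct cells, the proximal membrane arm 25.7% to 28.5% over the lineages and the Q module 8.80% to 10.8%. Assembly factors took 1.64% to 2.57%. *NDUFA4* and *NDUFA4L2* together took 2.34 ± 0.413% in endocrine cells, against 8.94 ± 0.740% in acinar, 11.3 ± 1.25% in duct and 11.8 ± 1.54% in mural cells. All shares are parts of one whole, so the low share of this pair raises the other endocrine shares, those of the N module and the distal arm among them. Shares without the pair were not read, so the make-up of complex I itself was not compared. A few genes carried much of the sum: the 5 highest members held from 26.4% of it in endocrine to 34.8% in acinar cells, and 8 to 13 of the 45 members stayed under 20 CPM. UMIs are counted at transcript ends and were not divided by length, since the assay yields 1 count per transcript. *NDUFA4* was the highest member in 8 of the 10 lineages, and *NDUFS5*, an accessory subunit of the proximal membrane arm, in endocrine cells (428 ± 48.5 CPM, n = 21) and mural cells (429 ± 70.3 CPM, n = 21). The lowest member was *NDUFS6*, an N module subunit, at 0.704 to 1.81 CPM, or *NDUFA4L2* outside mural and stromal cells. A median of 27 NDUF genes had a UMI in an acinar, a duct or an endocrine cell, at medians of 28439, 9979 and 10562 UMIs per cell, and 11 in a lymphoid cell, at 4519 UMIs.

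Which lineages express which subunits was tested for acinar, duct, endocrine and mural cells, each against the mean of the other 9 lineages, with the animal as a block, by edgeR's quasi-likelihood test on 13476 genes, 44 of them members (*NDUFS6* was too low). An adjusted p (Benjamini-Hochberg over all genes tested) of at most 0.05 was the threshold, and fold changes are log2, relative to a TMM scaling that centres the bulk of genes. In acinar cells 34 of 44 members were higher and 5 lower, where 41.7% of all genes were higher and 31.5% lower, and on total UMIs, without that scaling, 0 were higher and 41 lower, where 8.77% of all genes were higher and 75.8% lower. The scaling moved all genes together: the median log2 fold change of the members was 0.59 beside 0.03 for all genes with TMM, and -0.78 beside -1.32 on total UMIs. Relative to the median gene, members were thus 0.54 to 0.56 higher in acinar cells under each of the 3 scalings tried. The same difference was 0.26 to 0.28 in endocrine cells, 0.24 to 0.25 in mural cells and -0.06 to -0.04 in duct cells. A scaling shifts all genes of a lineage nearly alike, so the agreement between scalings was fixed by the method. Total UMIs moved the acinar genes down and the duct, endocrine and mural genes up. Members lower in acinar cells, or higher in those other lineages, thus keep their sign on total UMIs nearly by construction. Directions below that follow the scaling are marked, and without male CF replicate 3 the acinar counts were 33 higher and 6 lower.

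On the TMM scale, and not on total UMIs, the higher members in acinar cells came from every structural part, with 8 of 9 tested N module genes, 6 of 6 Q module genes, 6 of 9 proximal and 10 of 11 distal membrane arm genes, and 3 of 7 assembly factors. The largest was *NDUFAF4*, an assembly factor, at 1.27 (SE 0.10), followed by the distal arm subunit *NDUFB10* at 1.26 (SE 0.06), the N module subunit *NDUFA2* at 1.24 (SE 0.06) and the proximal arm subunit *NDUFC2* at 1.18 (SE 0.06). The assembly factor *NDUFAF2* was at 1.05, *NDUFA6* at 1.00, *NDUFS5* at 0.90, and *NDUFA7* and *NDUFS7* at 0.87. On total UMIs the sign of all 9 turned, from -0.07 for *NDUFAF4* to -0.54 for *NDUFA7*, which is still above the all-gene median of -1.32. The members lower in acinar cells kept their sign under each scaling. *NDUFS1*, the largest iron-sulphur subunit of the N module, was at -0.41 (SE 0.08), *NDUFAF3* at -0.46, *NDUFAF5* at -0.49, *NDUFAF7* at -0.26 and *NDUFA4L2* at -3.20 (SE 0.51). *NDUFS1* stood at 3.80 to 15.1 CPM in acinar cells, at 21.7 to 70.3 CPM in duct cells and at 24.9 to 68.6 CPM in endocrine cells, and its acinar and duct ranges did not overlap. Of the flavin subunit *NDUFV1*, where NADH is oxidised, the acinar level was 29.2 ± 9.23 CPM (n = 23), against 79.0 ± 28.5 in duct (n = 23) and 60.5 ± 10.6 in endocrine cells (n = 21), and its acinar fold change turned from 0.27 with TMM to -1.13 on total UMIs.

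**Figure D2:**
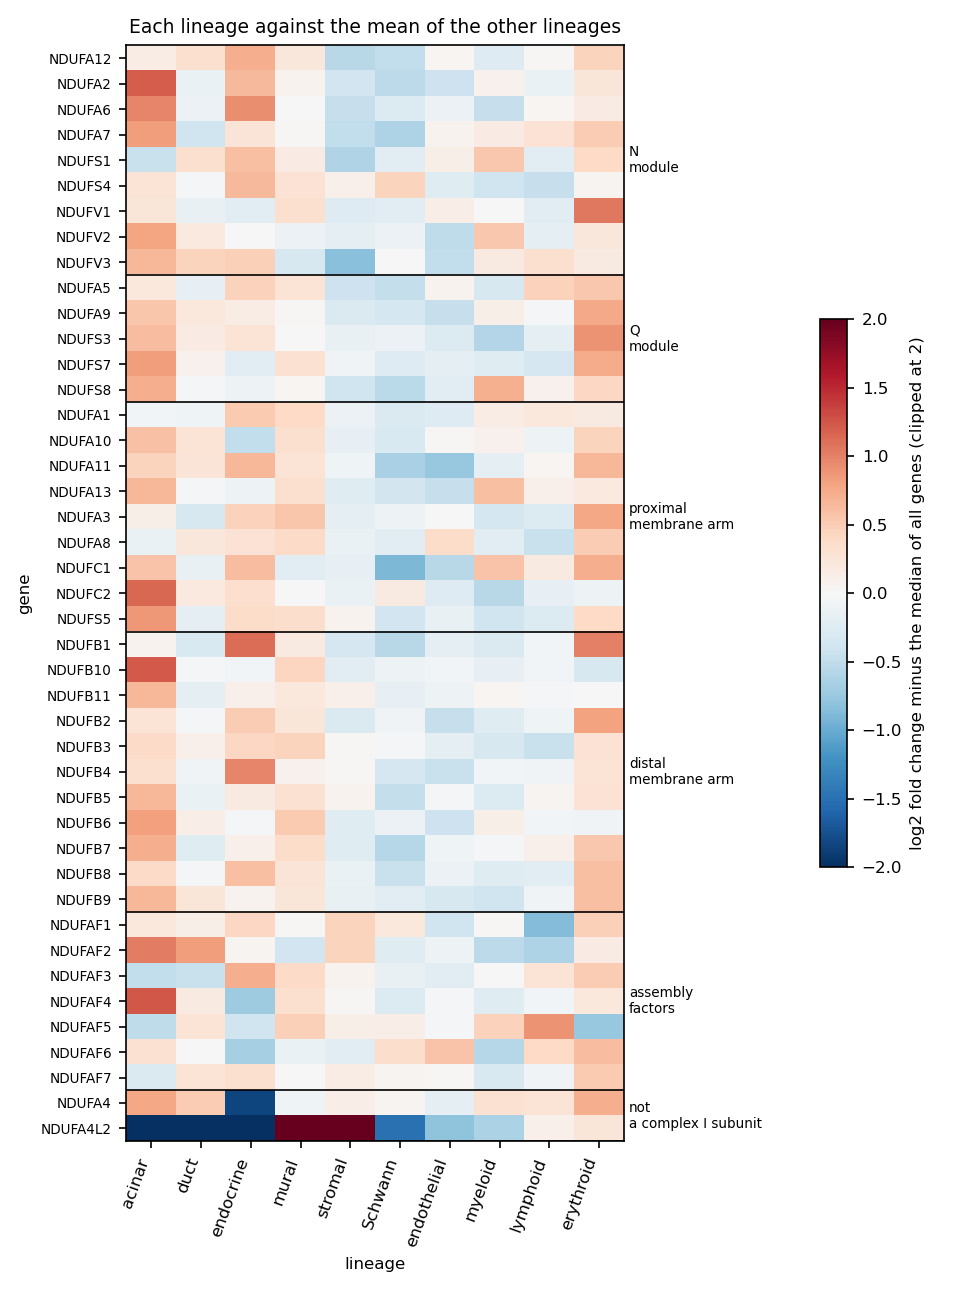
Log2 fold change of 43 NDUF genes in each of 10 lineages against the other lineages, minus the median of all genes in that lineage, clipped at 2 in either direction, with the genes grouped by role. Relative to that median most members are positive in acinar cells, *NDUFA4* is at -1.83 in endocrine cells and *NDUFA4L2* is positive in mural cells, while without this centring the acinar signs turn on total UMIs.

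In endocrine cells 26 of 44 members were higher and 8 lower, against 40% and 33.8% of all genes, and 36 were higher and 3 lower on total UMIs, against 53.4% and 21.9%. With TMM the N module had 7 of 9 higher and 1 lower, the proximal membrane arm 7 of 9 and 1, the distal membrane arm 6 of 11 and 0, the Q module 3 of 6 and 1, and the assembly factors 3 of 7 and 3. On total UMIs these counts were, in the same order, 8 and 0, 8 and 0, 11 and 0, 5 and 0, and 4 and 1. The largest were the distal arm subunits *NDUFB1* at 1.14 (SE 0.07) and *NDUFB4* at 0.98 (SE 0.06), then *NDUFA6* at 0.94, the assembly factor *NDUFAF3* at 0.75, *NDUFA12* at 0.74, *NDUFS4* at 0.66 and *NDUFS1* at 0.62, all positive under each scaling. *NDUFB1* had 111 ± 58.7 CPM in endocrine cells (n = 21), 55.7 ± 26.7 in duct (n = 23) and 22.6 ± 14.9 in acinar cells (n = 23). The lower members were led by *NDUFA4L2* at -2.53, *NDUFA4* at -1.82 (SE 0.09), *NDUFAF4* at -0.70 and *NDUFAF6* at -0.65. *NDUFV1* at -0.21 and the Q module subunit *NDUFS7* at -0.21 were lower with TMM and at 0.09 and 0.08 on total UMIs. The Q module core subunit *NDUFS8* was at -0.09 and did not pass the test.

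In duct cells 18 of 44 members were higher and 8 lower, against 38.9% and 27.1% of all genes, and 42 were higher and 1 lower on total UMIs, against 69.7% and 10.1%. The members as a group sat near the median gene there. *NDUFAF2* was highest at 0.88 (SE 0.09), followed by *NDUFA4* at 0.55, *NDUFV3* at 0.50, *NDUFA12* at 0.37 and *NDUFS1* at 0.36, each positive under every scaling. *NDUFA7* at -0.35 and *NDUFAF3* at -0.41 were lower with TMM and at 0.20 and 0.17 on total UMIs. The core subunits *NDUFV1* at -0.09 and *NDUFS8* at 0.00 did not pass the test. In mural cells 23 members were higher and 4 lower, against 30.1% and 29.4% of all genes, and 39 higher and 0 lower on total UMIs, against 52.0% and 12.6%. Apart from *NDUFA4L2* at 8.32 (SE 0.17), the mural differences were small, led by *NDUFA3* at 0.51 and *NDUFB6* at 0.47, and 9 of the 11 distal arm genes were among those higher. *NDUFAF2* at -0.44 and *NDUFV3* at -0.36 were lower with TMM, and *NDUFV3* was at 0.02 on total UMIs. Without male CF replicate 3 the counts were 19 and 8 in duct, 26 and 8 in endocrine and 26 and 3 in mural cells.

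Some members were called in opposite directions in 2 lineages. Since 59.5% to 73.8% of all genes were called in each of these lineages, opposite calls alone do not set the members apart, and the genes are given as a description on the TMM scale. Between acinar and endocrine cells *NDUFA10*, *NDUFA4*, *NDUFAF4*, *NDUFAF6*, *NDUFS7* and *NDUFV1* were higher in the first and lower in the second, and *NDUFAF3*, *NDUFAF7* and *NDUFS1* the reverse. Between acinar and duct cells *NDUFA7*, *NDUFB11*, *NDUFB7* and *NDUFS5* were higher in the first and lower in the second, and *NDUFAF5*, *NDUFAF7* and *NDUFS1* the reverse. Between duct and endocrine cells *NDUFA10*, *NDUFA4*, *NDUFAF4* and *NDUFAF5* were higher in duct and lower in endocrine cells, and *NDUFA3*, *NDUFA7*, *NDUFAF3*, *NDUFB1* and *NDUFS5* the reverse. Against mural cells, *NDUFAF2* and *NDUFV3* were higher in both exocrine lineages and lower in mural cells, as was *NDUFV2*. *NDUFC1* was higher in acinar and endocrine cells and *NDUFV3* in endocrine cells as well, and both were lower in mural cells. *NDUFA4L2*, *NDUFAF3* and *NDUFAF5* were lower in acinar cells and higher in mural cells. In duct cells this held for *NDUFA3*, *NDUFA4L2*, *NDUFAF3*, *NDUFB11*, *NDUFB7* and *NDUFS5*, and in endocrine cells for *NDUFA4L2*, *NDUFAF5*, *NDUFS7* and *NDUFV1*. On total UMIs all 44 acinar members were negative, and only 1 member was called lower in duct cells and 0 in mural cells. The pairs that rest on a higher call in acinar cells or on a lower call in mural cells, and nearly all that rest on a lower call in duct cells, are thus lost on that scale.

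The core and the best-known accessory subunits showed these differences as levels. *NDUFS8*, an iron-sulphur subunit of the Q module, stood at 67.7 ± 23.3 CPM in acinar (n = 23), 141 ± 49.0 in duct (n = 23), 112 ± 28.9 in endocrine (n = 21) and 121 ± 33.8 in mural cells (n = 21). Acinar cells were lowest and the spread of the other 3 lineages overlapped. The values that follow are in the same order. *NDUFA1*, a small membrane subunit needed for assembly, stood at 48 ± 25.8, 150 ± 55.1, 182 ± 73.2 and 172 ± 66.7 CPM. *NDUFB8* stood at 67.1 ± 14.7, 175 ± 34.5, 222 ± 29.3 and 180 ± 42.3 CPM, and *NDUFB11* at 134 ± 30.4, 271 ± 64.4, 270 ± 35.3 and 286 ± 62.1 CPM, both of the distal arm. *NDUFAB1* stood at 54.0 ± 20.5, 174 ± 49.3, 182 ± 34.8 and 145 ± 39.2 CPM. *NDUFAF1* was a low transcript everywhere, at 2.12 ± 0.97 CPM in acinar, 6.96 ± 2.75 in duct and 6.34 ± 1.67 in endocrine cells.

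The pair outside complex I showed the sharpest split. In endocrine cells *NDUFA4* lay at 80.3 CPM at the lowest, 142 at the median and 212 at the highest of 21 animals, against 730 ± 205 CPM in duct (n = 23), 420 ± 120 in mural (n = 21) and 246 ± 58.1 in acinar cells (n = 23). The endocrine value was below the acinar, duct, stromal and endothelial value of the same animal in 21 of 21 animals and below the mural value in 20 of 20. It was also below the Schwann value in 17 of 17, the myeloid in 16 of 16 and the lymphoid value in 15 of 15 animals. Only against erythroid cells was it above in 4 of 10. The low level was present in each group: the endocrine means were 172 CPM in WT and 173 in CF animals at 80 days, 107 in WT, 101 in male CF and 134 in female CF animals at 120 days, and 164 in WT and 140 in CF lambs at term. A UMI of *NDUFA4* was found in 65.4% of endocrine cells, against 94.9% of duct cells, which had nearly the same depth (10562 and 9979 UMIs per cell at the median).

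*NDUFA4L2* was a mural gene in these data. It lay at 40.5, 287 and 539 CPM (lowest, median and highest of 21 animals) in mural cells, where the lowest value was that of WT term replicate 4, with 43 UMIs, and the next was 152. In 12 of 23 acinar, 14 of 23 duct and 11 of 21 endocrine sums it had no UMI at all, and its highest value there was 5.03 CPM. A UMI was seen in 47.1% of mural cells (median 5393 UMIs per cell), 6.37% of stromal cells (5912 UMIs) and 0.145% to 0.596% of cells elsewhere. The stromal level was 2.74 to 8.19 CPM in the 4 WT animals at 80 days, and 22.3, 34.3 and 69.3 CPM in the CF animals of that age. At term it was 8.59, 14.1 and 14.7 CPM in WT and 17.7, 28.7 and 47.0 CPM in CF lambs. At 120 days it was 3.02, 12.2 and 14.1 CPM in WT, 36.2 and 67.5 in female CF, and 0 to 42.6 CPM in male CF animals. The WT and CF stromal values did not overlap at 80 days or at term, and they overlapped at 120 days because of the male CF group. The 13 mural markers summed to 962 to 1243 CPM in the WT and 1212 to 1448 CPM in the CF stromal sums at 80 days, to 356 to 480 and 556 to 3447 CPM at term, and to 10551 to 55245 CPM in mural cells themselves, and their part in the stromal values was not tested. This stromal comparison was seen after the values were read and was not tested, and as few as 1 UMI stood behind a WT value at term.

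**Figure D3:**
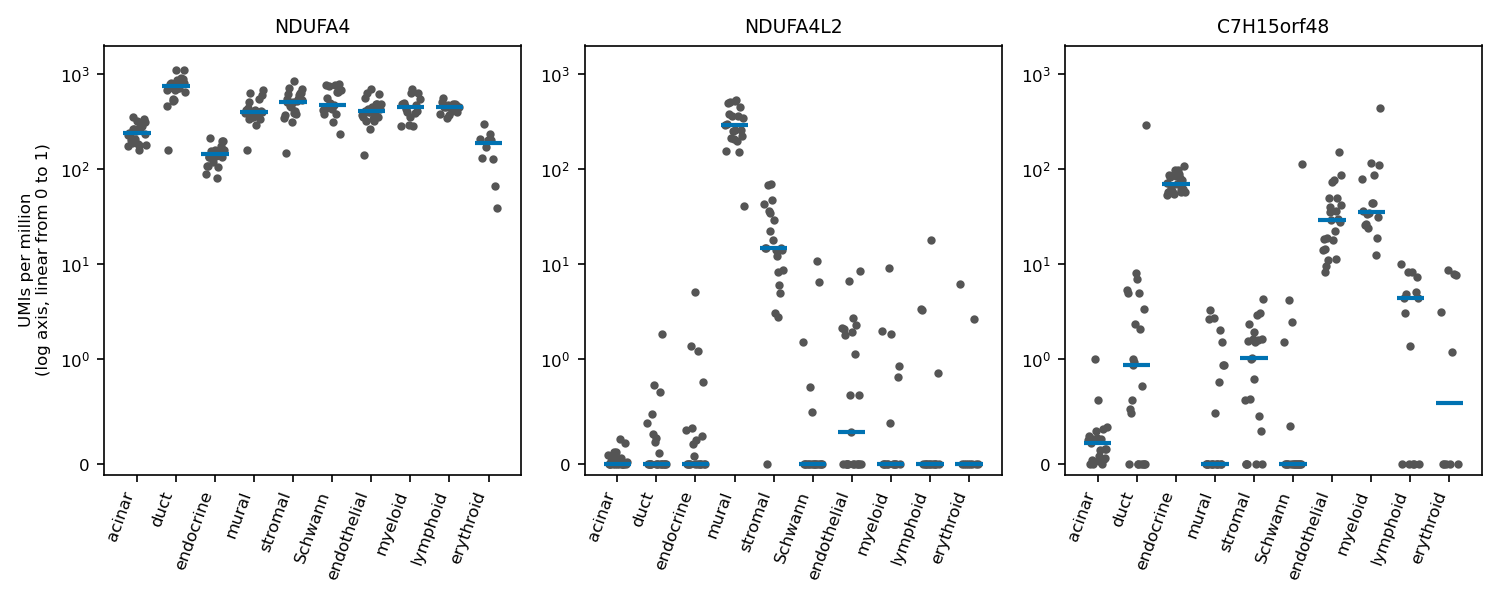
Level of *NDUFA4*, *NDUFA4L2* and *C7H15orf48* per animal in 10 lineages, in CPM on an axis that is linear from 0 to 1 and logarithmic above, with each point an animal and bars for medians. Endocrine animals lie at 80.3 to 212 CPM for *NDUFA4*, mural animals at 40.5 to 539 CPM for *NDUFA4L2*, and endocrine animals at 53.5 to 107 CPM for *C7H15orf48*, a paralogue added after its values were seen.

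Development was compared in WT animals. Between 80 and 120 days no member passed the test in acinar (1.9% of all genes called), duct (0.562%) or endocrine cells (0.755%). By the unadjusted p of edgeR 1 member was under 0.05 in acinar, 0 in duct and 3 in endocrine cells, and DESeq2 called 0 in each. The median member was at 0.03, 0.06 and 0.02, beside -0.03, -0.02 and -0.01 for all genes. On total UMIs, however, 43 members were lower in acinar cells at 120 days, where 52.4% of all genes were called lower, with a median of -0.88 beside -0.96 for all genes, and 0 in duct or endocrine cells. The share of *LOC101117443* in the WT acinar UMIs moved with this, from 16.4% to 25.1% at 80 days to 37.2% to 43.2% at 120 days. The summed acinar level was 3413 ± 170 CPM at 80 days (n = 4) and 1963 ± 144 CPM at 120 days (n = 3), without overlap. With *LOC101117443* and the marker, hormone, enzyme and mitochondrial genes left out of the denominator it was 4830 ± 160 CPM (4608 to 4961) and 4188 ± 458 CPM (3663 to 4508).

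From 120 days, in fetuses, to term, in lambs after birth, genes of the N module, the Q module, the distal membrane arm and the assembly factors rose in acinar cells. In these cells 14 of 44 members were higher at term and 0 lower, which is 31.8% of the members, where 19.1% of all genes were called and 10.5% were higher. The median member was 0.53 higher, beside 0.00 for all genes, and 41 of 44 members were positive. DESeq2 called 17 members, all 14 among them, where it called 3194 of 14981 genes in either direction. Total UMIs gave 10, of which 9 were among the 14, where 7.48% of all genes were called higher. The count moved with the animals: it was 2 (*NDUFB9* and *NDUFV3*) in male animals alone, with 2 fetuses and 3 lambs, 9 without WT 120-day replicate 1 or 2 and 8 without replicate 3, and all 14 stayed positive in each of these fits. The share of all genes called was not counted in these fits with fewer animals. By role, 4 of 10 N module genes, 3 of 6 Q module genes, 4 of 7 assembly factors, 3 of 11 distal arm genes and 0 of 9 proximal arm genes rose. The median of the proximal arm was 0.38, its gene *NDUFA10* (0.89, SE 0.32, edgeR adjusted p = 0.0576) was called by DESeq2, and *NDUFA10* and *NDUFA11* passed without WT term replicate 4, so the proximal arm was not shown to differ from the others, which was not tested. *NDUFB9*, a distal arm subunit, was at 25.0, 23.1 and 21.0 CPM in the WT replicates at 120 days and at 65.7, 39.7, 57.9 and 46.4 CPM in the WT replicates at term, so the groups did not overlap. Its log2 fold change was 1.06 (SE 0.19, edgeR adjusted p = 0.000933). *NDUFV3*, an N module subunit, was at 30.2, 26.6 and 25.0 CPM and then at 60.0, 44.6, 59.7 and 53.7 CPM (0.89, SE 0.18, edgeR adjusted p = 0.00177). *NDUFV1* was at 20.5, 16.1 and 20.0 CPM and then at 51.3, 46.5, 38.1 and 24.4 CPM (0.95, SE 0.21, edgeR adjusted p = 0.00418). In each of the 3 genes every lamb at term was above every fetus at 120 days, though replicate 4 came close for *NDUFV1*.

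Another 11 members rose. *NDUFS1* went from 4.75, 4.52 and 3.80 CPM to 12.5, 6.81, 9.87 and 4.78 CPM (0.80, SE 0.20, edgeR adjusted p = 0.00993), and its lowest value at term was only just above the fetal range. *NDUFB11*, a distal arm subunit, went from 97.1, 86.4 and 89.8 CPM to 200, 165, 167 and 123 CPM (0.72, SE 0.19). The assembly factors *NDUFAF5* (1.46, SE 0.38), *NDUFAF1* (1.13, SE 0.34), *NDUFAF4* (0.94, SE 0.25) and *NDUFAF3* (0.89, SE 0.22) rose, as did *NDUFA7* (0.91), *NDUFS7* (0.76), *NDUFB7* (0.65), *NDUFA9* (0.63) and *NDUFS3* (0.62), at edgeR adjusted p-values up to 0.0399. *NDUFAF1*, which helps to join the membrane arm, was at 0.6 to 1.3 CPM in the fetuses and 1.6 to 3.1 CPM in the lambs, on 21 to 80 and 52 to 217 UMIs per animal. *NDUFAB1*, read under its locus number, was 0.76 higher (SE 0.25, edgeR adjusted p = 0.0370). Several core and accessory subunits did not pass: *NDUFS8* was at -0.19 (SE 0.23), *NDUFC2* at -0.03 (SE 0.24), *NDUFB8* at 0.13 (SE 0.20) and *NDUFA1* at 0.24 (SE 0.44). *NDUFA4*, outside complex I, was at 0.49 (SE 0.24) and did not pass either. WT term replicate 1 was the highest lamb for 13 of the 14 genes that rose, and replicate 4 was the lowest for *NDUFV1*, *NDUFS1*, *NDUFA7* and *NDUFB11*. Among the genes that rose, in *NDUFA9*, *NDUFS3*, *NDUFAF4* and *NDUFAF5* at least 1 lamb lay within the fetal range or below it. The 13 acinar marker genes summed to 26981 to 60124 CPM in these fetuses and to 50103 to 107955 CPM in these lambs, and their part in the result was not tested.

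**Figure D4:**
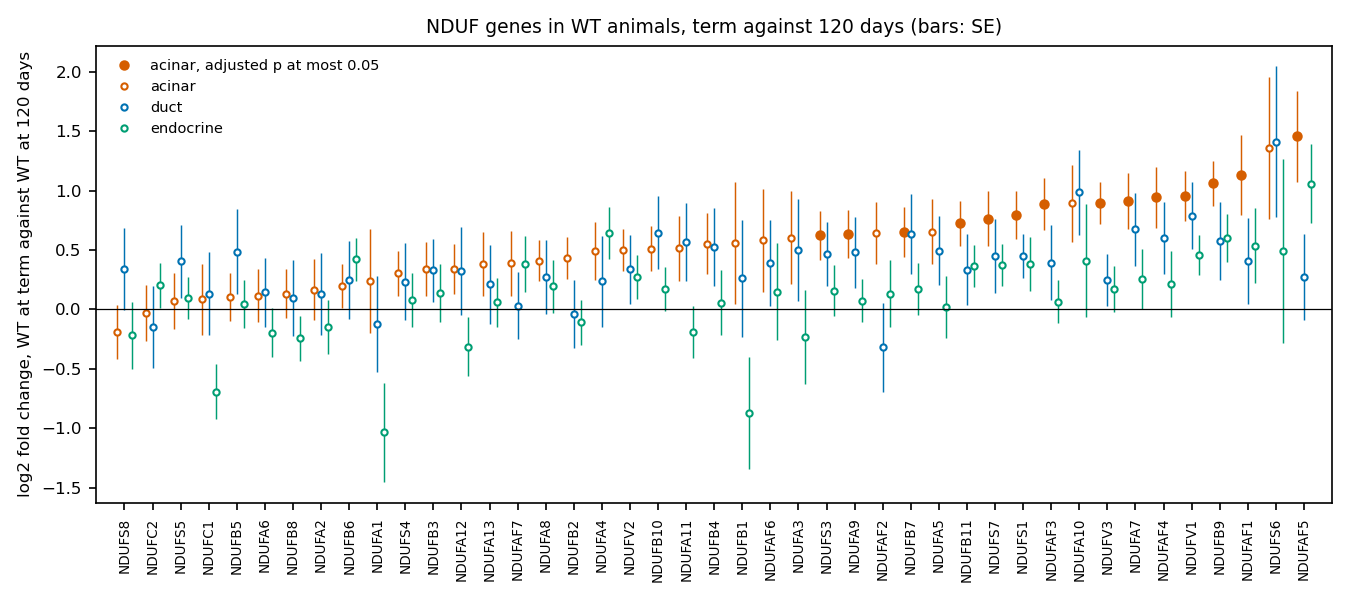
Log2 fold change between term and 120 days in WT animals for 43 NDUF genes in acinar, duct and endocrine cells, with bars of 1 standard error and filled points where the acinar test passed an adjusted p of 0.05. Filled points are the 14 acinar genes, from *NDUFS3* at 0.62 to *NDUFAF5* at 1.46, and no duct or endocrine gene passed.

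In duct cells no member passed the test between 120 days and term (1.77% of all genes called), although 40 of 44 members were positive with a median of 0.34 beside 0.01. Unadjusted, 6 were under 0.05, and DESeq2 called 0. In endocrine cells the count was also 0 (3.46% of all genes called), with a median of 0.14 beside 0.03, 8 members under an unadjusted 0.05 and 0 by DESeq2. There *NDUFA1*, a small proximal arm subunit, was at -1.03 (SE 0.42) and *NDUFAF5* at 1.06 (SE 0.33), neither past the threshold. Other settings called a few members: with cells under 10% mitochondrial UMIs *NDUFB10* and *NDUFV1* passed in duct and *NDUFA4* and *NDUFB9* in endocrine cells. The same duct pair passed without male CF replicate 3. In endocrine cells *NDUFC1* passed on total UMIs, where it was lower at term. It also passed without CF 80-day replicate 1, and *NDUFAF5* passed without WT term replicate 2. On total UMIs 2.87% of all genes were called in endocrine cells, and in the other settings that share was not counted. The difference between the acinar and the endocrine change was tested with the animal as a block. It passed for 10 of 45 members, where 6.33% of all genes passed, and each time the acinar change was the higher. *NDUFA3* differed by 0.92 (edgeR adjusted p = 0.00874), *NDUFB1* by 0.87 (0.00585 adjusted), *NDUFV3* by 0.86 (0.00280 adjusted) and *NDUFA1* by 0.80 (0.00380 adjusted), and *NDUFAF2*, *NDUFA7*, *NDUFA11*, *NDUFAF3*, *NDUFA12* and *NDUFB2* by 0.61 to 0.72. Of these 10, *NDUFV3*, *NDUFA7* and *NDUFAF3* were among the 14 that rose in acinar cells. WT term replicate 1 had 1 endocrine cell and no endocrine sum, so the test of this difference left it out in both lineages and rests on 3 lambs. Between acinar and duct cells the difference of the change passed for 0 members (1.58% of all genes), with 3 members under an unadjusted 0.05 in edgeR.

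Other genes of mitochondria and energy metabolism were read over the same interval, where 10.5% of all genes rose and 8.55% fell. In acinar cells the 1 gene of complex III (*UQCRH*, at -0.37) and the 1 gene of complex IV (*COX5A*, at 0.49) that were tested did not pass. Over this interval in acinar cells 2 of 8 further assembly factors rose (*ECSIT* at 1.18 and *TMEM70* at 0.96), as did 1 of 4 subunits of complex II (*SDHC* at 0.63) and 1 of 8 regulators of mitochondrial genes (*TFB2M*, a mitochondrial transcription factor, at 0.93). Of 19 genes named ATP5, not all of them for subunits of complex V, the ATP synthase, *ATP5G1* rose by 1.48 and *ATP5G2*, a gene for the same subunit c, fell by 0.85. Of the 13 genes of the mitochondrial genome 0 rose and 3 fell, *MT-ATP8* by 1.20, and the complex I genes *MT-ND3* by 1.09 and *MT-ND5* by 0.76, while on total UMIs 2 fell. Glycolysis and oxygen-response genes were split, with *EGLN3* at 2.29, *LDHA* at 1.25 and *PGK1* at 1.02 higher and *NDRG1* at -1.51, of 16. None of 10 cell division genes passed. On total UMIs, which moved the median gene up, the median of the N module was 0.79 and that of the assembly factors 1.06, beside 0.11 for all genes.

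CF and WT animals were compared at each age, which asks whether loss of CFTR goes with a change in these genes before or at birth. In acinar cells no member passed at 80 days (0.541% of all genes called), at 120 days in male (0%) or female CF animals (1.07%), or at term (1.19%). In endocrine cells none passed either, with 0.179% of all genes called at 80 days, 0.0523% and 0.0972% at 120 days in the male and female CF animals, and 0.0224% at term. Without CF replicate 1, however, 4 endocrine members were called at 80 days (*NDUFA1*, *NDUFA3*, *NDUFB1* and *NDUFC1*), and the share of all genes called in that fit was not counted. Its CF libraries at 80 days fall in another run of accession numbers than the WT and HZ libraries. Run and genotype cannot be told apart there. Over these 8 comparisons at most 4 members were under an unadjusted 0.05 in any of them, where 6.97% to 15.0% of all genes were, and DESeq2 called 0 in each. The median member lay between -0.19 and 0.19 in both lineages. In acinar cells 34 of 44 members were below 0 at 80 days, where 51.3% of all genes were, and in the female CF group at 120 days 31 of 44 were above 0, where 53.4% of all genes were. On total UMIs 16 were below 0 at 80 days, where 30.4% of all genes were, and 32 above 0 in the female CF group, where 54.3% were. At term 24 were above 0 with TMM, where 48.7% of all genes were, and 9 on total UMIs, where 43.4% were. In the male CF group at 120 days 34 of 44 were below 0 (29 of 44 without replicate 3), where 51.9% of all genes were, and 0 of 44 on total UMIs, where 14.0% of all genes were below 0. The median member was 0.17 below the median gene with TMM (-0.19 beside -0.02) and 0.12 below it on total UMIs (0.33 beside 0.44). Without replicate 3 it was 0.08 below the median gene with TMM (-0.09 beside -0.01).

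In duct cells a single member passed. *NDUFS1* was lower in CF duct cells at 80 days (0.894% of all genes called) and at term (2.59%), and no member passed in the male or the female CF group at 120 days (0% of all genes called in each). At 80 days *NDUFS1* was at 67.1 and 57.7 CPM in the WT replicates 1 and 3 and at 60.3 and 53.0 CPM in the HZ replicates 2 and 4. The 3 CF fetuses of that age were at 28.2, 33.0 and 30.6 CPM. All CF values lay below all WT and HZ values, and the log2 fold change was -0.87 (SE 0.19, edgeR adjusted p = 0.0327). At term *NDUFS1* was at 67.9, 40.7, 70.3 and 62.9 CPM in the WT lambs and at 25.8, 23.1 and 29.0 CPM in the CF lambs. The groups again did not overlap, and the fold change was -1.09 (SE 0.18, edgeR adjusted p = 0.00350). The naturally bred female CF lambs at 25.8 and 23.1 CPM and the cloned male at 29.0 CPM were alike low.

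**Figure D5:**
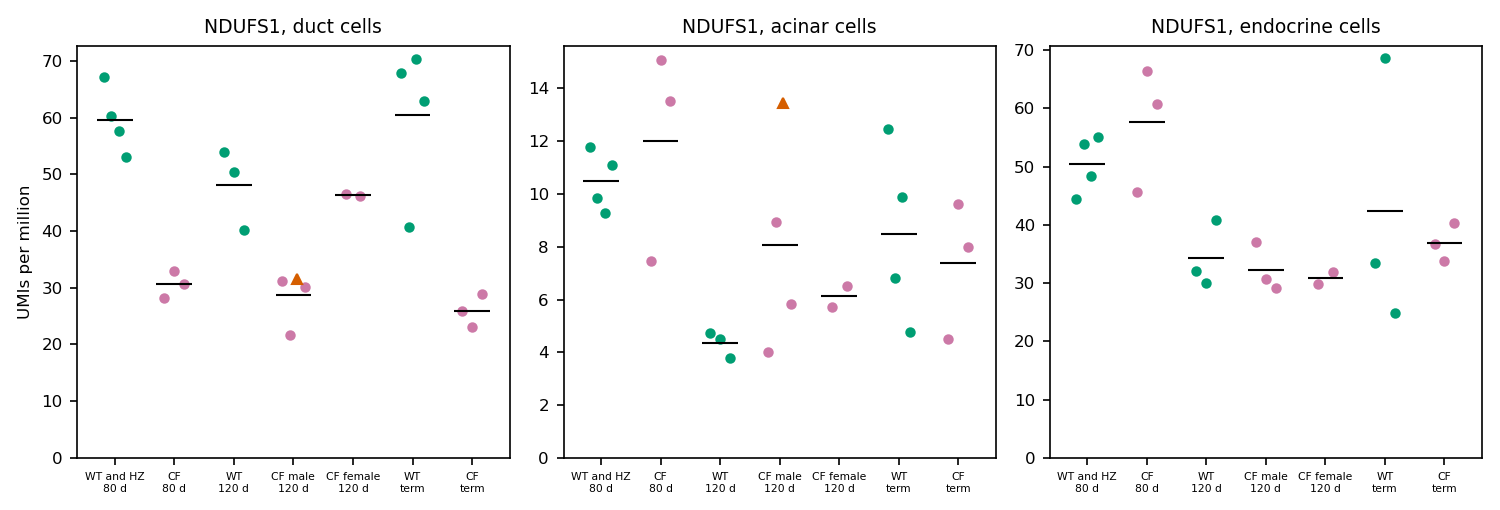
*NDUFS1* level per animal, in CPM, in duct, acinar and endocrine cells by age and genotype, with each point an animal, the bar the mean and the triangle male CF replicate 3 at 120 days. In duct cells the CF animals lie at 28.2 to 33.0 CPM at 80 days and at 23.1 to 29.0 CPM at term, below every WT animal of the same age, and the female CF animals at 120 days lie inside the WT range.

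At 120 days *NDUFS1* was at 53.9, 50.3 and 40.1 CPM in WT duct cells, at 31.3, 21.7, 31.6 and 30.2 CPM in the male CF fetuses and at 46.5 and 46.1 CPM in the female CF twins. Every male CF value was below every WT value (-0.76, SE 0.18), but the edgeR adjusted p was 0.150, and DESeq2 called it. The value of male CF replicate 3 rests on 22 UMIs, against 78 to 556 for the other duct sums. The female CF twins lay inside the WT range (-0.06, SE 0.22, edgeR adjusted p = 0.972). The male CF fetuses were cloned and the female twins naturally bred, so sex and cloning cannot be told apart between them. The difference between the male and the female CF effect was -0.71 (SE 0.20, edgeR adjusted p = 0.0908) and did not pass, and the effect at term minus that at 80 days was -0.22 (edgeR adjusted p = 1). The effect in duct minus that in endocrine cells was -0.84 at 80 days (edgeR adjusted p = 0.111) and -0.82 at term (0.157 adjusted), so the drop was not shown to be limited to duct cells. In acinar cells *NDUFS1* was at 9.27 to 11.8 CPM in WT and 7.46 to 15.1 CPM in CF animals at 80 days, and in endocrine cells at 44.5 to 55.1 and 45.7 to 66.3 CPM.

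The call of *NDUFS1* in duct cells at 80 days lay near the threshold, and that at term passed in more of the alternatives. At 80 days the fold change was -0.96 to -0.81 over 18 alternatives, of which 7 passed, and it missed the threshold without any 1 of the 7 animals, for example without CF replicate 3 (adjusted p = 0.171). It also missed it when 1 of the female CF twins of 120 days, or all female animals, were left out, although the 80-day animals stayed the same. At term the fold change was -1.23 to -0.94 over 19 alternatives, of which 17 passed. The exceptions were the fit on the term animals alone (adjusted p = 0.145) and that on male animals alone, which holds a single CF lamb (-0.94, adjusted p = 0.225), while the 2 female CF lambs alone passed (-1.16, adjusted p = 0.0110). The libraries fall into 2 runs of accession numbers, and at 80 days CF replicate 1, at 28.2 CPM, is the only CF fetus in the run of the WT and HZ fetuses. At 120 days the WT fetuses and male CF replicate 1 were in the first run, and all other CF fetuses in the second. Run and genotype thus cannot be told apart for the female CF twins. At term the first run held WT at 67.9 and 40.7 and CF at 25.8 and 23.1 CPM, and the second WT at 70.3 and 62.9 and CF at 29.0 CPM. With the run as a term in the fit the fold changes were -0.94 (edgeR adjusted p = 0.0582) and -1.07 (0.00518 adjusted).

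The other members leaned the same way in duct cells without passing, although with the 80-day animals fitted alone *NDUFB9*, *NDUFS7* and *NDUFV1* passed beside *NDUFS1*. The share of all genes called in that fit was not counted. At 80 days 42 of 44 members were below 0, with a median of -0.33 beside -0.01 and 50.9% of all genes below 0. At term 37 of 44 were below 0 (median -0.31 beside -0.03), where 52.5% of all genes were. In the male CF group at 120 days 42 of 44 were below 0 (median -0.49), where 50.5% of all genes were. Without replicate 3 it was 39 of 44 (median -0.21), where 48% of all genes were below 0. In the female CF group 17 of 44 were below 0 (median 0.08), where 48.7% of all genes were. Unadjusted, 2, 3, 9 and 0 members were under 0.05 in these comparisons, beside 12.7%, 16.8%, 11.4% and 11% of all genes, and the 9 became 4 without replicate 3, beside 7.95% of all genes. Examples are *NDUFV1* at term (-0.60, SE 0.28, edgeR adjusted p = 0.274) and *NDUFV3* at term (-0.60, SE 0.22, edgeR adjusted p = 0.162). The summed duct level was 6419 to 7946 CPM in the 4 WT and HZ fetuses at 80 days and 5037, 5090 and 6466 CPM in the CF fetuses, with 1 overlap, and 6146 to 8940 CPM in WT and 5093, 5937 and 7948 CPM in CF lambs at term, where the groups overlapped. Markers of other cell types moved in the duct sums as well. The 13 mural markers summed to 27.4 to 108 CPM in WT and 306 to 1792 CPM in CF lambs at term, and to 123 to 189 and 139 to 693 CPM at 80 days. The 10 stromal markers summed to 3.02 to 27.5 and 18.7 to 80.1 CPM at term. The 13 acinar markers summed to 547 to 1219 CPM in WT and 278 to 679 CPM in CF fetuses at 80 days, and to 2953 to 19290 and 1457 to 14025 CPM at term. The part of these cells in the *NDUFS1* result was not tested. Among the regulators *PPARGC1A*, a coactivator of mitochondrial genes, was lower in CF duct cells at 80 days (-2.32, SE 0.55, edgeR adjusted p = 0.0465), and it was the only one of 8 to pass in any CF comparison. This call lay near the threshold and was not followed through the alternatives. Its link to *NDUFS1* was not tested.

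The nuclear genes can be set beside the 7 complex I genes of the mitochondrial genome, in the same sums. In WT duct cells the ratio of NDUF to MT-ND UMIs had a median of 0.444 at 80 days, 0.332 at 120 days and 0.321 at term.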

How the data were processed

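Single-cell libraries of sheep pancreas were deposited by the authors as raw UMI counts per gene and barcode, made with Cell Ranger 3.1.0 against the sheep assembly Oar_v4.0 with replicates kept apart, per the labels and the study's methods. No value was normalized before deposit. Barcodes with over 200 and under 6000 genes and under 25% mitochondrial UMIs were kept, as in the study. A barcode was given the lineage with the highest mean marker z score (log of depth-scaled counts, within an age), if that score was at least 0.3 and led the next by at least 0.3, which left 7016 barcodes out. These limits were set after cell numbers were seen. No doublet caller was run. Free RNA was not removed.

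UMIs were summed per animal and lineage (at least 20 cells) and fitted with edgeR 4.0.16 (glmQLFit, TMM, filterByExpr) in R 4.3.3, over 14981 genes in acinar, 13533 in duct and 13373 in endocrine cells, with all 7 groups in 1 fit per lineage. Lineages were compared in a fit over all 10 with the animal as a block. Differences between lineages also had the animal as a block. Tests were two-sided, adjusted by Benjamini-Hochberg over all genes of a fit, with a threshold of 0.05. Replicates were separate animals, and repeat libraries of an animal were summed. The edgeR fits were run on simulated counts with 200 changed genes, for term against 120 days and for mural cells at 80 days. The tests of differences, DESeq2 and the other steps were not. Alternatives were DESeq2 1.42.0, other scalings, filters, gates and samples. Named genes were up to 10 members with the largest change past the threshold in a lineage, members past it in opposite directions in 2 lineages, the highest and lowest member of a lineage, and 12 fixed members. The members, the lists and the tests were chosen with earlier results of these data known. Counting error and the number of animals limit the precision, and a level of 1 CPM rests on few UMIs. Gene coordinates and sequences were not used here. Values of 1 of these members are counted in the totals but not reported here.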

Additional observations from a re-analysis of the deposited data

Results flagged for a closer look

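Within groups of 4 to 10 animals the highest or lowest animal was compared with the others by Dixon's test in 65 groups, of which chance flags about 1 in 20. In 3 groups an animal lay apart. The summed NDUF level of mural cells was 6911 CPM in WT 80-day replicate 4 (an HZ animal), with the next at 6421 and the lowest at 6328 CPM. *NDUFA4* in acinar cells was 320 CPM in the same animal, against 278 to 285 CPM in the other 3. *NDUFS1* in duct cells was 21.7 CPM in male CF 120-day replicate 2, against 30.2 to 31.6 CPM in the other 3.

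The change between 120 days and term in WT animals differed between acinar and endocrine cells for 10 members, by the test of the difference itself in edgeR, and each difference (acinar minus endocrine, log2) was positive. In the membrane arm they were *NDUFA3* at 0.92, *NDUFB1* at 0.87, *NDUFA1* at 0.80, *NDUFA11* at 0.71 and *NDUFB2* at 0.61. In the N module they were *NDUFV3* at 0.86, *NDUFA7* at 0.71 and *NDUFA12* at 0.68. The assembly factors were *NDUFAF2* at 0.72 and *NDUFAF3* at 0.69. WT term replicate 1, the highest lamb for *NDUFA1* (101 CPM in acinar cells, against 21.0 to 31.4 in the other 3) and *NDUFB1* (58.8 CPM, against 8.66 to 16.2), has no endocrine sum. It was left out of this test in both lineages, so the test rests on 3 lambs, against 4 in the acinar test.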

How the results depend on the processing

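Between CF and WT animals at 80 days, 1 member was called, and 0 without a filter on low counts, without the HZ animals, with the accession run as a term, without the female animals of the other ages or with the replicate number as a block. With that age fitted alone 4 were called in duct cells (*NDUFB9*, *NDUFS1*, *NDUFS7*, *NDUFV1*), and leaving out an animal gave 0 to 4, the 4 being endocrine (*NDUFA1*, *NDUFA3*, *NDUFB1*, *NDUFC1*) without CF replicate 1, where accession run and genotype coincide. At 120 days 0 were called, with 1 by DESeq2 in the male CF group, 1 in the female CF group with that age fitted alone (*NDUFB1*, acinar), and 0 without any animal. At term 1 was called, 2 on total UMIs (*NDUFV3* added), 0 with term or with male animals alone, and 1 to 2 leaving out an animal, 2 without WT replicate 2 (*NDUFAF4*, acinar). In WT animals, 120 against 80 days gave 43 on total UMIs against 0, and term against 120 days gave 14, 2 in male animals alone, 13 with the accession run, 11 with the replicate block and 8 to 18 leaving out an animal, 18 without WT term replicate 4. Equal replicate numbers did not pair the animals: deviations of same-numbered animals correlated at -0.23 to 0.24, with 7 of 48 pairs above 0.1 in acinar cells, and no block could be fitted for the female CF group. Of duct members against the other lineages 26 were called, 43 on total UMIs and 13 at term alone, and of mural members 27, with 15 at 80 days and 12 at 120 days alone. Without male CF replicate 3, added after the data were seen, the counts were 39 in acinar, 27 in duct, 34 in endocrine and 29 in mural cells. On total UMIs positive members went from 37 to 0 of 44 in acinar, 28 to 43 in duct and 30 to 43 in mural cells. Among the genes of largest change the sign turned in acinar cells for *NDUFAF4* (-0.069), *NDUFB10* (-0.15), *NDUFA2* (-0.16), *NDUFC2* (-0.22), *NDUFAF2* (-0.30), *NDUFA6* (-0.37), *NDUFS5* (-0.49), *NDUFA7* (-0.54) and *NDUFS7* (-0.53), in duct cells for *NDUFAF3* (0.17) and *NDUFA7* (0.20) and in mural cells for *NDUFV3* (0.016), since this alternative leaves out the scaling. The summed level moved to 7728 CPM in endocrine cells on the first other denominator, and without *LOC101117443*, chosen after the data were seen, to 5148 CPM in acinar and 7885 CPM in endocrine cells. The causes of the other moves were not tested. Depth limits *NDUFS6*, *NDUFA4L2* outside mural cells and most assembly factors, which rest on few UMIs per animal.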

Other observations

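*C7H15orf48*, a paralogue of *NDUFA4* that was looked up after the values of the *NDUFA4* pair were seen, had its highest median in the lineage where *NDUFA4* was low. It lay at 53.5, 70.1 and 107 CPM (lowest, median and highest) in endocrine cells, and 46.3% of those cells had a UMI, against 0.569% of acinar cells. Endothelial cells lay at 8.26, 28.7 and 151 CPM and myeloid cells at 12.3, 35.1 and 435 CPM. In all other lineages the median was at most 4.33 CPM, although 1 duct sum, that of WT term replicate 4, held 287 CPM and 1 Schwann sum, that of WT term replicate 2, held 113 CPM on 7 UMIs. These values are a description and no test was run on them.

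A pair of small membrane arm subunits varied between animals in several lineages at once. *NDUFB1* in CF 80-day replicate 1 was 61.0 CPM in acinar, 103 in duct and 305 in endocrine cells, against 14.2 to 15.8, 22.7 to 29.3 and 65.2 to 69.9 CPM in the other 2 CF fetuses of that age. *NDUFA1* in acinar cells was 116 CPM in that animal, against 41.7 to 42.6 CPM in the others. The other 2 CF fetuses share an animal number and fall in another accession run than replicate 1. Run and animal thus cannot be told apart there. In WT term replicate 1 *NDUFA1* was 101 CPM in acinar and 264 CPM in duct cells, against 21.0 to 31.4 and 97.0 to 139 CPM in the other lambs.

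The ratio of nuclear NDUF to mitochondrial MT-ND UMIs was higher at 80 days than at 120 days in the WT medians of 9 lineages, and lower in erythroid cells (0.479 and 0.518). The lineages come from the same WT and HZ libraries, so they are not independent observations. Mitochondrial transcripts had library medians of 2.59% to 3.884% of UMIs per kept barcode at 80 days and 3.879% to 4.386% at 120 days. The part of such differences between libraries was not tested. Schwann, endothelial, lymphoid and myeloid cells lay at 0.523, 0.585, 0.412 and 0.437 at 80 days and at 0.284, 0.299, 0.296 and 0.260 at 120 days, where myeloid cells had 1 WT sum and Schwann and lymphoid cells 2. From 80 days through 120 days to term it was 0.285, 0.179 and 0.302 in acinar, 0.339, 0.195 and 0.230 in endocrine, 0.880, 0.385 and 0.392 in stromal, and 0.706, 0.393 and 0.376 in mural cells, beside the duct values given above. Male CF replicate 3 at 120 days had a duct ratio of 0.0396.

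*NDUFC1*, a proximal arm subunit, was among the members of lowest unadjusted p in several CF comparisons without passing in any of them when all animals were fitted. At 80 days it was at -0.82 in acinar, -0.87 in duct and -0.62 in endocrine cells (edgeR adjusted p = 0.297, 0.293 and 0.326), and in the male CF group at 120 days at -0.85 in duct and -0.64 in endocrine cells (0.352 and 0.437 adjusted). Without male CF replicate 3 the lowest of all members in duct cells of that group was at -0.694. Without CF 80-day replicate 1 it passed in endocrine cells at 80 days, in a fit where accession run and genotype coincide at that age.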
